A study of Mus musculus with 6 samples.

Results

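A set of 49 genes that sense foreign or misplaced nucleic acid, carry the interferon signal or respond to it was examined in mouse embryonic fibroblasts (MEFs) with and without Mcm8. The genes were chosen by name from the 55565 listed: sensors of DNA and RNA, their adaptors and kinases, interferon regulatory factors, interferon receptors and interferon-stimulated genes, with the DDX and DHX helicases left out. Of the 49 genes, 48 had reads in at least 1 library and were tested between genotypes. Total RNA was sequenced from 3 wild-type (WT) and 3 Mcm8 knockout (KO) MEF libraries. The MEFs were made at embryonic day 13.5 from mice of mixed C57BL/6J × ICR descent, both genotypes were immortalized with the lentivirus SV40gp6 and selected with puromycin, and exon 7 of Mcm8 had been deleted in the KO mice by CRISPR-Cas9. No treatment with interferon or with nucleic acid was named for either genotype. Both had been exposed to the lentivirus and to puromycin, so the levels are those of transduced and selected cells. The methods call the 3 libraries of a genotype biological repeats. Whether they came from separate embryos or from cultures of the same immortalized line is not said. The p-values of the main test rest on the spread between these libraries, taken as a trend over all genes and not gene by gene.

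Cells read DNA in the cytosol as a sign of infection or damage. cGAS binds such DNA and makes a cyclic dinucleotide that activates STING at the endoplasmic reticulum, STING recruits the kinase TBK1, and TBK1 phosphorylates IRF3, which enters the nucleus and switches on the type I interferon genes. Double-stranded RNA reaches the same kinases through MDA5 (encoded by Ifih1) and the mitochondrial adaptor MAVS, or through TLR3 in endosomes. Secreted interferon binds IFNAR1 and IFNAR2, and a complex that contains STAT2 and IRF9 then induces a large set of antiviral genes from the interferon-stimulated response element (ISRE) in their promoters. Fibroblasts are a classical source of interferon beta and express a basal level of many of these genes. MCM8 is a helicase of the minichromosome maintenance family with roles in homologous recombination and in the response to replication stress, and the study asked how its loss affects genome stability and R-loops, structures in which RNA stays paired with template DNA.

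The libraries held 12722979 to 21022755 counts. Mcm8 itself, the check of the labels, was counted 176, 233 and 238 times in the WT libraries against 89, 74 and 66 times in the KO libraries, each in the order 1 to 3, as for all library values given here. Scaled by library size as CPM with TMM factors, which makes libraries comparable, it fell from 14.4 ± 1.99 to 4.26 ± 0.170 CPM (mean ± SD, n = 3), or 29.6% of WT. Of 9 fibroblast markers 3 rose (Col1a1, Col3a1 and Fn1) and 3 fell (Thy1, Pdgfrb and Vim), with summed levels of 24700 to 29100 CPM in WT and 28600 to 29400 CPM in KO. Of 9 macrophage and blood cell markers, 5 had at most 3 counts in every library (Ptprc, Adgre1, Itgam, Fcgr1 and C1qa), 0 passed the edgeR test (1 at an unadjusted p below 0.05, 0 with DESeq2), and the sum was 2.21 to 2.58 CPM in WT and 2.62 to 3.49 CPM in KO. Of 6 endothelial markers, 3 were at or under 3 counts throughout (Cdh5, Tie1 and Emcn) and 0 were called (0 at an unadjusted p below 0.05, 0 with DESeq2, 1 with limma voom). The sum of 8 epithelial and mesothelial markers was 6.77 to 8.23 CPM in WT and 55.8 to 61.5 CPM in KO, and 4 of them rose (Krt8, Krt18, Krt19 and Msln). In KO most of that sum was Msln, at 44.9 CPM beside 2.88 CPM in WT, while Epcam, Cdh1 and Wt1 were not called, Wt1 being at 0.261 and 0.309 CPM, and Upk3b was at or under 3 counts in every library. The part of these differences in the results that follow was not tested, and in bulk RNA fewer cells of a type and less RNA per cell cannot be told apart.

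The sensing and interferon genes did not move together in KO MEFs. Of the 48 genes tested, 4 rose (Zbp1, Gbp2, Irf1 and Ifnar2), 4 fell (Ifi204, Ifit2, Ifi27 and Ifit3) and 40 did not pass edgeR's quasi-likelihood test at an adjusted p below 0.05, with the adjustment made by the Benjamini-Hochberg method over all 26898 genes tested. These are 8.33% of the members in each direction. Over all genes tested, 4.97% were called higher and 4.03% lower in KO. Many of the genes tested have hardly any reads, and among the 13222 genes with a mean of at least 1 CPM the shares were 9.08% higher and 7.88% lower. All 8 called members were among the 47 with that level, a share of 17.0%, and 17.0% of all genes at that level were called in either direction, so the share of sensing and interferon genes called in either direction was near that of other expressed genes. At an unadjusted p below 0.05, 10 members were higher and 6 lower, beside 9.47% and 8.47% of all genes tested and 15.5% and 15.2% of those with at least 1 CPM.

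The fold changes were small and pointed both ways. Differences are given as log2 fold changes of KO against WT with the standard error (SE) of the fit, and they were above 0 for 25 members and below 0 for 23. Their median was 0.0127, beside 0.0121 for all genes tested, while with at least 1 CPM it was 0.0246 for the members and -0.0077 for all genes, and for 34 of the 48 the absolute log2 fold change was under 0.3. The summed level of the members was 1800 to 1830 CPM in the WT libraries and 1770 to 1820 CPM in the KO libraries, ranges that overlap. Only Zbp1 and Gbp2 passed the thresholds the study set for differentially expressed genes (DEGs), a fold above 2 in either direction with an adjusted p below 0.05. These thresholds called 1.75% of all genes tested as higher and 0.665% as lower. In 11 members every KO library lay above every WT library and in 6 every KO library lay below every WT library, the pattern shown by 11.6% and 10.1% of all genes tested and by 16.9% and 17.2% of those with at least 1 CPM.

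**Figure D1:**
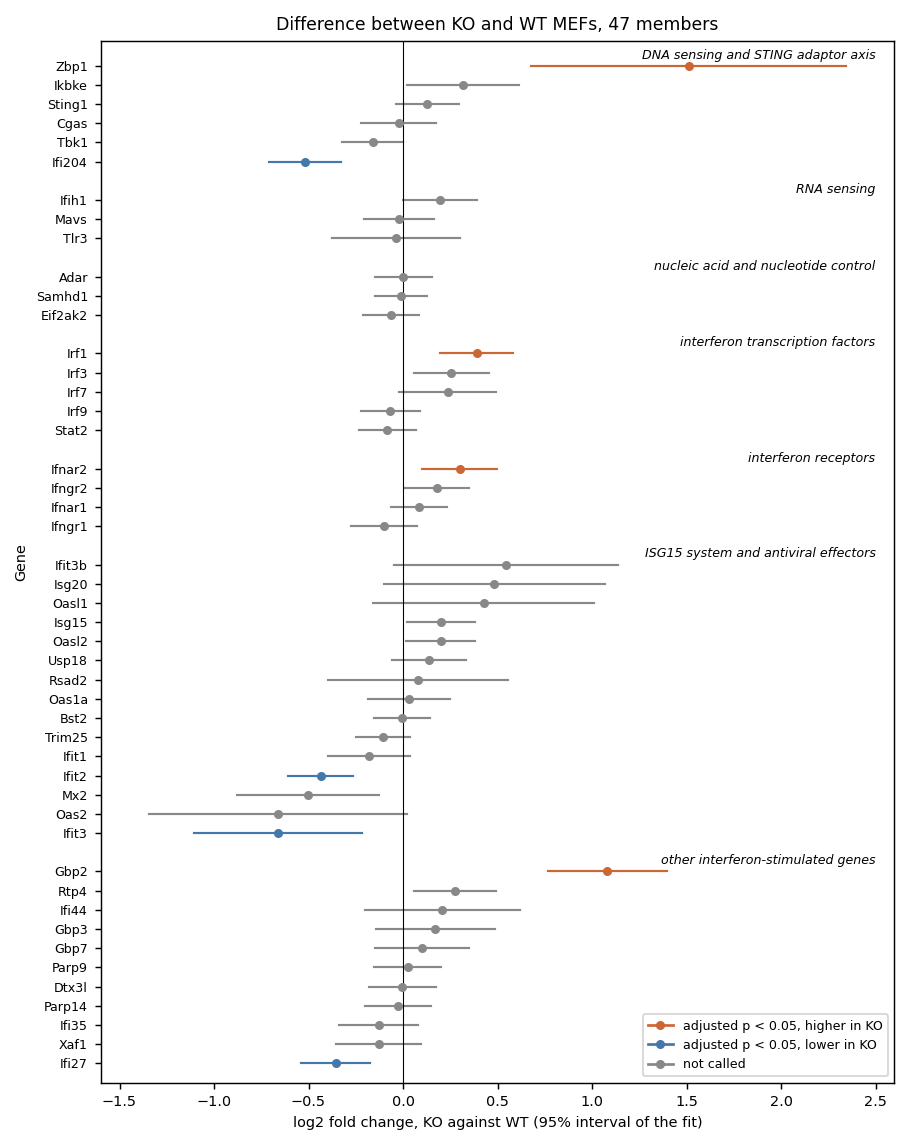
Log2 fold change of KO against WT MEFs for 47 members grouped by role, with 95% intervals of the edgeR fit (n = 3 libraries per genotype). Mx1, with too few counts, and Trex1, with 0 counts, are left out. Most intervals span or lie close to 0, the 4 genes that rose stand in orange and the 4 that fell in blue, and only Zbp1 and Gbp2 lie above 1.

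Levels compared between genes are given in FPKM, which divides reads by gene length. Bst2, which encodes tetherin, a membrane protein that holds budding virus at the cell surface, stood highest with 137, 101 and 108 FPKM in WT and 112, 118 and 115 FPKM in KO. The ubiquitin-like modifier Isg15 followed with a mean of 55.8 FPKM over the 6 libraries. Below it came Ifi27 with 23.8, Trim25 with 22.7, Samhd1 with 22.5, Eif2ak2 with 21.7 and Sting1 with 20.0 FPKM. In all, 17 members had a mean above 10 FPKM, 24 lay from 1 to 10 FPKM and 8 at 1 FPKM or less. At the low end were the antiviral genes Oas2 at 0.349 and Mx1 at 0.0562 FPKM and the sensor Zbp1 at 0.318 FPKM. The median of the 49 members was 7.42 FPKM.

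**Figure D2:**
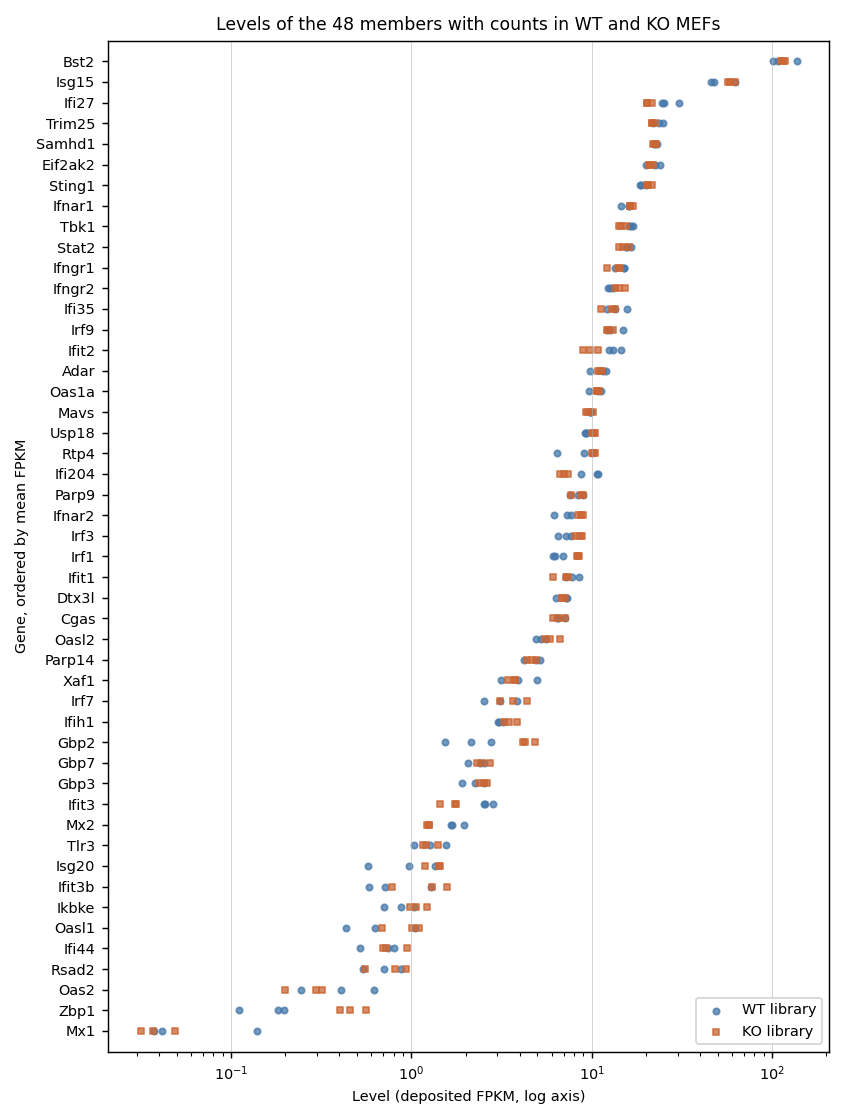
Level of each of the 48 members with reads, as deposited FPKM on a log axis, in 3 WT (circles) and 3 KO (squares) libraries, ordered by the mean. Bst2 stands at the top with 115 FPKM on average and Mx1 at the bottom with 0.0562 FPKM, and for most genes the circles and squares overlap.

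Among the members grouped here under DNA sensing and the STING axis, Zbp1 rose, Ifi204 fell and the core of the pathway was not called. Cgas, the DNA sensor, measured 26.4, 26.8 and 29.6 CPM in WT and 27.0, 25.3 and 29.5 CPM in KO. The ranges overlapped almost fully, and the log2 fold change was -0.02 with a 95% interval of -0.22 to 0.17 (edgeR adjusted p = 0.932). Sting1, the adaptor, measured 54.8, 50.8 and 52.1 CPM in WT and 56.2, 56.7 and 59.4 CPM in KO. All KO libraries lay above all WT libraries, but the difference of 0.13 (interval -0.04 to 0.29) did not pass the test (edgeR adjusted p = 0.458). Tbk1, the kinase, measured 66.5, 64.4 and 64.0 CPM in WT and 57.5, 61.2 and 55.5 CPM in KO. Here the KO libraries were all lower, with a log2 fold change of -0.16 (SE 0.08, edgeR adjusted p = 0.276). Ikbke, which encodes the related kinase IKK epsilon, was at 7.87 ± 1.5 CPM in WT against 9.87 ± 1.12 CPM in KO, with overlapping ranges (edgeR adjusted p = 0.231).

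Zbp1 encodes a sensor of Z-form nucleic acid that can start necroptosis, a lytic form of cell death, and lies on chromosome 2 at 173048405 to 173060716. It had 5, 9 and 13 counts in WT and 42, 27 and 23 in KO, or 0.392, 0.642 and 0.698 CPM against 1.98, 1.62 and 1.44 CPM. Every KO library lay above every WT library. The mean was 2.91 times higher, from 0.577 ± 0.163 to 1.68 ± 0.278 CPM, and the log2 fold change was 1.51 (SE 0.42, edgeR adjusted p = 0.00631). The call rests on few reads, and without KO1 the adjusted p was 0.081 at a log2 fold change of 1.37. Zbp1 lies on the same chromosome as the deleted gene, 40.4 Mb away. The other members on that chromosome were not called: Mavs at 1.57 Mb from Mcm8, Samhd1 at 24.3 Mb and Ifih1 at 70.2 Mb.

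Ifi204 encodes p204, an interferon-inducible protein that binds DNA, and lies on chromosome 1 at 173574859 to 173594509. It measured 38.6, 38.0 and 31.6 CPM in WT and 23.8, 26.3 and 25.2 CPM in KO. All KO libraries lay below the lowest WT library. The mean fell from 36.0 ± 3.89 to 25.1 ± 1.25 CPM, 69.7% of WT, with a log2 fold change of -0.52 (SE 0.10, edgeR adjusted p = 4.5e-06). Leaving out each library in turn gave -0.61 to -0.47, and the call held each time.

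Ifih1, Mavs and Tlr3 were grouped under RNA sensing. Of these 3 members, 0 were called by edgeR, 0 by DESeq2 and 0 at an unadjusted p below 0.05. Other members that act on RNA or Z-form nucleic acid, such as Eif2ak2, the Oas genes and Zbp1, are given with other groups. Ifih1, the sensor of long double-stranded RNA, measured 25.1, 26.3 and 24.8 CPM in WT and 28.8, 31.7 and 26.7 CPM in KO. Its KO libraries all lay above the WT libraries, with a log2 fold change of 0.20 (SE 0.10, edgeR adjusted p = 0.286). Mavs, the mitochondrial adaptor, was at 33.0 ± 0.115 CPM in WT against 32.6 ± 1.46 CPM in KO, and Tlr3, the endosomal RNA receptor, at 6.73 ± 1.36 and 6.54 ± 0.678 CPM. Both overlapped between genotypes.

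Of the genes that edit, degrade or limit nucleic acids, 3 were tested and 0 were called by edgeR, 0 by DESeq2 and 0 at an unadjusted p below 0.05. Samhd1, which hydrolyses deoxynucleotides, was at 207 ± 3.68 CPM in WT against 206 ± 3.97 CPM in KO, with a log2 fold change of -0.01 and an interval of -0.15 to 0.13. Adar, the RNA-editing enzyme that marks cellular double-stranded RNA as self, was at 91.1 ± 9.59 and 91.2 ± 2.07 CPM, and Eif2ak2, the RNA-activated kinase PKR, at 114 ± 10.3 and 109 ± 2.94 CPM. In all 3 the genotypes overlapped. Trex1, the exonuclease that clears cytosolic DNA, was listed at 0 counts in all 6 libraries, where 3 counts, the limit that a count of 0 allows, correspond to 0.143 to 0.236 CPM. Its 1802 bases lie wholly inside Atrip on the same strand, and Atrip had 334 to 538 counts per library. How the counting treated reads that fall in both genes is not stated, so the 0 cannot be read as absence of Trex1 RNA.

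Of the 5 interferon transcription factors, Irf1 rose and the other 4 were not called. Irf1 encodes an activator of interferon and antigen presentation genes that is itself induced by interferon gamma, and lies on chromosome 11 at 53660841 to 53669200. It measured 27.6, 24.8 and 24.6 CPM in WT and 33.5, 34.1 and 33.1 CPM in KO. The genotypes did not overlap. The mean rose from 25.7 ± 1.66 to 33.6 ± 0.530 CPM, 1.31 times, with a log2 fold change of 0.39 (SE 0.10, edgeR adjusted p = 0.00164). Leaving out each library in turn gave 0.36 to 0.44. Irf1 shares 3144 bases with Gm17334 on the opposite strand, which had 12, 10 and 8 counts in WT and 14, 20 and 11 in KO. Irf3, the factor that TBK1 activates, measured 24.9, 22.5 and 26.8 CPM in WT and 30.6, 28.1 and 30.0 CPM in KO. All its KO libraries lay above the WT libraries, with a log2 fold change of 0.26 and an interval of 0.06 to 0.45, but the gene did not pass the test over all genes (edgeR adjusted p = 0.101). Irf3 shares 1065 bases, 20.5% of its span, with Bcl2l12 on the opposite strand, and without strand reads in the shared bases cannot be told apart. Bcl2l12 had 92, 119 and 162 counts in WT and 230, 185 and 175 in KO, and the part of these reads in Irf3 was not tested.

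Irf7, the interferon-induced factor that amplifies the response, measured 14.6, 9.62 and 11.9 CPM in WT and 13.9, 11.8 and 16.7 CPM in KO, with overlapping ranges and a log2 fold change of 0.24 (edgeR adjusted p = 0.336). Without WT1 it was 0.38 (edgeR adjusted p = 0.0436), and without each of the other libraries 0.11 to 0.35 (edgeR adjusted p 0.181 to 0.791). Irf9 and Stat2 encode members of the complex that binds the ISRE. Irf9 measured 80.4, 65.2 and 69.0 CPM in WT and 66.9, 71.5 and 66.1 CPM in KO, with a log2 fold change of -0.07 (edgeR adjusted p = 0.684). Stat2 measured 92.0, 93.7 and 99.3 CPM in WT and 95.7, 88.9 and 84.4 CPM in KO, with a log2 fold change of -0.08 (edgeR adjusted p = 0.614). In both genes the genotypes overlapped.

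Of the 4 interferon receptor genes, Ifnar2 rose by a small margin. It measured 25.6, 20.7 and 24.4 CPM in WT and 29.9, 28.2 and 29.0 CPM in KO, and lies on chromosome 16 at 91169671 to 91202477. The genotypes did not overlap, and the mean was 1.23 times higher in KO, with a log2 fold change of 0.30 (SE 0.10, edgeR adjusted p = 0.0388). The call was lost in 10 of 16 alternatives, among them DESeq2 (adjusted p = 0.102) and the omission of any library other than WT1 (adjusted p up to 0.276 without WT2). Ifnar2 shares 13869 bases with Gm21970 on the same strand, which was listed at 0 counts in every library. Ifnar1, the other chain of the type I receptor, measured 86.4, 96.1 and 96.3 CPM in WT and 97.2, 101 and 97.4 CPM in KO, with a log2 fold change of 0.08 (edgeR adjusted p = 0.614). The chains of the interferon gamma receptor were not called: Ifngr1 was at 41.6 ± 2.48 and 38.7 ± 3.30 CPM, and Ifngr2 at 48.1 ± 1.35 and 54.4 ± 3.64 CPM, in WT and KO. In 3 of the 4 receptor genes, Ifngr1 excepted, every KO library lay above every WT library, a pattern that 16.9% of all genes with at least 1 CPM showed in this direction, and only Ifnar2 passed the test.

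The ISRE core was looked for in the promoters of the members. It was searched as GAAANNGAA on both strands in the 250 bases before each RefSeq start site of the GRCm38.p6 build. It occurred in 14 of 47 windows of the 38 members that had a window, or 29.8%, and in 7.13% of all 32851 windows. The gamma-activated site, the element through which interferon gamma induces genes, was searched as TTCNNNGAA and occurred in 19.1% of member windows and 7.02% of all. The searches can overlap each other. The following lines give the 200 bases before the start of 5 members with the ISRE core in capitals, chosen because their calls in KO MEFs differed, and of Irf1 with the gamma-activated letters in capitals.
Gbp2, chr3:142620463-142620662, plus strand: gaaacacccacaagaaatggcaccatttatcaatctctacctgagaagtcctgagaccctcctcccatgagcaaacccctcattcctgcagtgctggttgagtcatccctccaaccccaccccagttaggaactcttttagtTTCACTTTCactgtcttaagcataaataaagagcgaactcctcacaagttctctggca
Isg15, chr4:156200819-156201018, minus strand: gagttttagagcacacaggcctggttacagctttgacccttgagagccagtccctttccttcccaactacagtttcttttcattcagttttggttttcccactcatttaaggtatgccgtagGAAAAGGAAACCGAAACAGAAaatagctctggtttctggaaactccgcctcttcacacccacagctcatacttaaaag
Ifit1, chr19:34640689-34640888, plus strand: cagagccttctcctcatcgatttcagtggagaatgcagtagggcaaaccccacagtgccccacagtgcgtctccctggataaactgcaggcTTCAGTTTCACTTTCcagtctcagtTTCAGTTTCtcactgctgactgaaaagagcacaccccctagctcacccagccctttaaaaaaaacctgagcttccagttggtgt
Ifit3, chr19:34583329-34583528, plus strand: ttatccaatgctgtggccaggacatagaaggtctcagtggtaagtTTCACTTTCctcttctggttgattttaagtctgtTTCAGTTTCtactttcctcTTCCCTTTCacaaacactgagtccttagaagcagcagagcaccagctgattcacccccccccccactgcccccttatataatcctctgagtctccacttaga
Ifit3b, chr19:34607757-34607956, plus strand: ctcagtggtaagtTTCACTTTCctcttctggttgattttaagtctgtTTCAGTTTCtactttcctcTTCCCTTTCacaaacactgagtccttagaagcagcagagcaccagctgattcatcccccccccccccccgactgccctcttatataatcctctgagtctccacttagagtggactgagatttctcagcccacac
Irf1, chr11:53769814-53770013, plus strand: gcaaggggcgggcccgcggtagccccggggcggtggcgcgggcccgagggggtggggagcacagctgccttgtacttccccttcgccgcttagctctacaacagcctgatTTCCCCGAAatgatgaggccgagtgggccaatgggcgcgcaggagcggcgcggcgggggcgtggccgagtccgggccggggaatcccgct
The cores of Isg15 follow each other in 1 overlapping run. Those of Ifit3 and Ifit3b lie in a stretch of 119 bases that is the same in both genes, with all 3 cores inside it. Gbp2 has 1 core, 58 bases before its start. A match of letters is a description and not a measured binding site. Over all 14 members with the ISRE core in a window, 1 rose (Gbp2), 1 fell (Ifit3, whose call is not stable, as given with its values) and 12 were not called, beside the 17.0% of all genes with at least 1 CPM called in either direction. Log2 fold changes were above 0 for 9 of the 14 and below 0 for 5.

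Of the 16 genes of the ISG15 system and the antiviral effectors, Ifit2 and Ifit3 fell and 14 were not called. The IFIT proteins bind viral RNA and limit its translation, and their genes stand side by side on chromosome 19. Ifit2 (34528094 to 34553819) measured 51.5, 56.9 and 49.4 CPM in WT and 38.5, 42.6 and 35.5 CPM in KO. All KO libraries lay below all WT libraries. The mean fell from 52.6 ± 3.85 to 38.9 ± 3.53 CPM, 73.9% of WT, with a log2 fold change of -0.44 (SE 0.09, edgeR adjusted p = 2.35e-05), and leaving out each library in turn gave -0.50 to -0.37. Ifit1 measured 22.7, 19.2 and 20.9 CPM in WT and 19.9, 19.2 and 16.2 CPM in KO, which overlap, with a log2 fold change of -0.18 (edgeR adjusted p = 0.423).

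Ifit3 (34560931 to 34566131) had 63, 62 and 84 counts in WT and 65, 42 and 50 in KO, or 4.94, 4.42 and 4.51 CPM against 3.07, 2.52 and 3.12 CPM. The genotypes did not overlap, and the log2 fold change was -0.66 (SE 0.23, edgeR adjusted p = 0.0405). Its close copy Ifit3b measured 2.59, 1.43 and 1.18 CPM in WT and 3.16, 1.56 and 2.62 CPM in KO, higher rather than lower on average but with overlapping libraries (log2 fold change 0.55, edgeR adjusted p = 0.34). The longest open reading frames of the copies in the GENCODE M21 transcripts are both 1212 bases long and 99.1% identical, with 11 differing bases and an identical run of 329 bases, so the split of reads between them is uncertain. Shown are bases 229 to 288 of each frame, the 60 bases where the copies differ most, with differing bases in capitals.
Ifit3: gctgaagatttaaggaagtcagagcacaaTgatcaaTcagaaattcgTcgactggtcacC
Ifit3b: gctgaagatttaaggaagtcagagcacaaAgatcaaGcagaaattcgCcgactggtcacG
With the reads of the copies added up, the level was 7.52, 5.85 and 5.69 CPM in WT and 6.23, 4.09 and 5.75 CPM in KO, the log2 fold change was -0.23 (SE 0.18), and the call of Ifit3 was lost (edgeR adjusted p = 0.572). The call of Ifit3 was lost in 11 of 17 alternatives in all, among them DESeq2 (adjusted p = 0.113) and the omission of any library other than WT2 (adjusted p 0.0724 to 0.197).

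**Figure D3:**
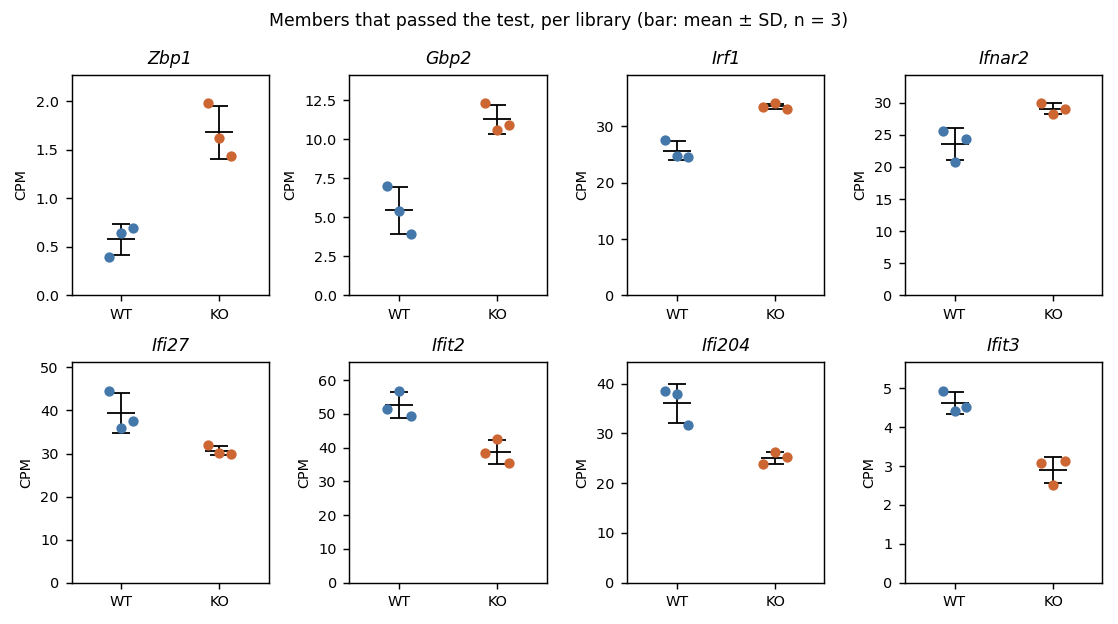
CPM in each of the 3 WT and 3 KO libraries (points) with the mean and SD (bars) for the 8 members that passed the test, each on its own axis from 0. In all 8 the WT and KO points are separate, with the largest ratio in Zbp1, at the lowest level of the 8, and smaller ratios of 1.31 in Irf1 and 1.23 in Ifnar2.

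Isg15, whose product is joined to target proteins during the interferon response, measured 43.7, 33.6 and 32.7 CPM in WT and 40.6, 41.4 and 44.1 CPM in KO. WT1 was as high as the KO libraries and the other WT libraries were lower. The log2 fold change was 0.20 with an interval of 0.02 to 0.38 (edgeR adjusted p = 0.186). Without WT1 it was 0.34 (edgeR adjusted p = 0.00119), in a fit that called 6.11% of all genes tested higher and 6.02% lower. Omitting each of the other libraries gave 0.12 to 0.23 (edgeR adjusted p 0.326 to 0.637), and DESeq2 gave an adjusted p of 0.357. Usp18, the protease that removes ISG15 and restrains the receptor, measured 25.9, 26.1 and 26.1 CPM in WT and 28.8, 29.1 and 28.1 CPM in KO. The KO libraries were all higher, but the log2 fold change of 0.14 did not pass the test (edgeR adjusted p = 0.53). Isg20, a ribonuclease, was at 1.80 ± 0.720 CPM in WT against 2.52 ± 0.259 CPM in KO, and Trim25, a ubiquitin ligase of the RNA sensing pathway, at 136 ± 9.51 and 126 ± 2.44 CPM. Bst2 had a mean of 105 ± 16.7 CPM in WT against 104 ± 2.66 CPM in KO, and Rsad2, which encodes viperin, 3.09 ± 0.757 and 3.34 ± 0.845 CPM. In these 4 genes the genotypes overlapped.

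The OAS proteins make a second messenger from ATP on double-stranded RNA that activates RNase L. Oas1a measured 21.3, 20.4 and 18.5 CPM in WT and 20.8, 20.2 and 20.2 CPM in KO, with a log2 fold change of 0.03 (edgeR adjusted p = 0.914). Its reading frame is 96.7% identical to that of Oas1g, and with their reads added up the log2 fold change was also 0.03 (edgeR adjusted p = 0.903). Oasl2 measured 33.5, 35.7 and 31.6 CPM in WT and 35.5, 42.5 and 37.7 CPM in KO, where KO1 lay just under WT2, with a log2 fold change of 0.20 (edgeR adjusted p = 0.208). Oas2 was at 1.90 ± 0.844 and 1.22 ± 0.284 CPM and Oasl1 at 1.85 ± 0.817 and 2.45 ± 0.564 CPM in WT and KO, both with overlap. The dynamin-like GTPases encoded by Mx1 and Mx2 trap viral components. Mx1 had 2, 2 and 10 counts in WT and 3, 2 and 3 in KO, at or under 3 counts in all libraries but WT3, and no fold change is given for it. Mx2 measured 6.04, 7.06 and 6.12 CPM in WT and 4.53, 4.45 and 4.56 CPM in KO. All its KO libraries lay below the WT libraries, with a log2 fold change of -0.50 (SE 0.19), but it did not pass the test (edgeR adjusted p = 0.083).

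Of the remaining 11 interferon-stimulated members, Gbp2 rose, Ifi27 fell and 9 were not called. Gbp2 encodes a guanylate-binding protein that attacks the vacuoles of intracellular pathogens, and lies on chromosome 3 at 142326363 to 142343769. It had 89, 76 and 73 counts in WT and 261, 176 and 174 in KO, or 6.98, 5.42 and 3.92 CPM against 12.3, 10.6 and 10.9 CPM. Every KO library was well above every WT library. The mean rose from 5.44 ± 1.53 to 11.3 ± 0.934 CPM, 2.07 times, with a log2 fold change of 1.08 (SE 0.16, edgeR adjusted p = 1.14e-09). Leaving out each library in turn kept the call and gave 0.87 to 1.29, and without WT3, the lowest WT library, the change no longer reached the fold of a DEG. Its neighbours Gbp3 and Gbp7 on the same chromosome were not called, at 7.35 ± 1.02 and 13.1 ± 1.38 CPM in WT and 8.26 ± 0.410 and 14.1 ± 1.24 CPM in KO.

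Ifi27, on chromosome 12 at 103400470 to 103406498, measured 44.6, 36.0 and 37.5 CPM in WT and 31.9, 30.1 and 30.0 CPM in KO. The KO libraries lay below all WT libraries. The mean fell from 39.4 ± 4.60 to 30.6 ± 1.10 CPM, 77.9% of WT, with a log2 fold change of -0.36 (SE 0.09, edgeR adjusted p = 0.00284). Rtp4, a chaperone of receptors, measured 21.5, 13.7 and 19.6 CPM in WT and 22.1, 21.6 and 22.5 CPM in KO, without overlap but short of the threshold (log2 fold change 0.27, edgeR adjusted p = 0.116). Rtp4 shares 525 bases with Masp1 on the opposite strand, whose counts were 401, 450 and 564 in WT and 1673, 1255 and 1275 in KO; the part of these reads in Rtp4 was not tested. The ADP-ribosyltransferase genes Parp9 and Parp14 and the ligase gene Dtx3l, which overlaps Parp9, were at 40.7 ± 3.40, 44.4 ± 4.55 and 40.1 ± 3.38 CPM in WT and 41.4 ± 3.43, 43.6 ± 2.46 and 40.0 ± 1.02 CPM in KO. Ifi35, Ifi44 and the pro-apoptotic gene Xaf1 also overlapped between genotypes, with log2 fold changes of -0.13, 0.21 and -0.13.

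The members were also compared library by library. The median deviation of the 47 members with at least 1 CPM from their own mean over the 6 libraries was -0.0032, -0.0089 and -0.0111 on the log2 scale in the WT libraries and 0.0343, 0.0128 and 0.0012 in the KO libraries. Within role groups the spread was wider. The 5 interferon transcription factors had the widest, with a median deviation of -0.24 in WT2 and 0.15 in KO3. The 15 antiviral effectors had a median deviation of 0.17 in WT1 and of -0.03 and -0.07 in WT2 and WT3, while the 3 KO libraries lay between -0.02 and 0.0012. In this group the WT libraries lay farther from each other than the KO libraries did. Without WT1, 8 members were called higher rather than 4, the added genes being Isg15, Irf7, Ifit3b and Rtp4, and 4 were called lower, with Trim25 in place of Ifit3. Calls over all genes tested also became more frequent without WT1, at 6.11% higher and 6.02% lower. Without KO1, the deepest library, Irf1 and Gbp2 were called higher and Ifi204, Ifit2 and Ifi27 lower, beside 3.51% higher and 2.48% lower over all genes tested.

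**Figure D4:**
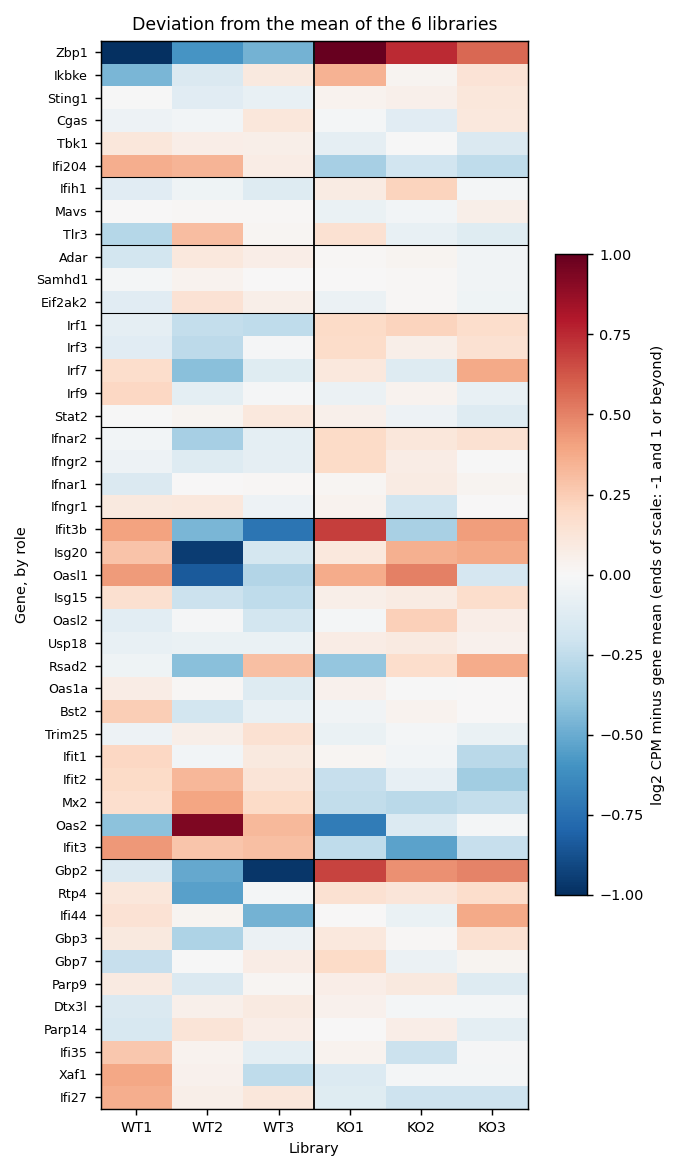
Deviation of each member with at least 1 CPM from its mean over the 6 libraries (log2 CPM, color from -1 in blue to 1 in red), with libraries in columns and genes by role. Zbp1 and Gbp2 are blue in the 3 WT columns and red in the 3 KO columns, while no library column is of 1 color throughout.

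Genes of the pathway outside the set were called in both directions. The interferon ligands were all but silent: of 21 ligand genes 18 had 0 counts in every library, Ifnb1 among them, and 20 had at most 3 counts in every library. The exception was Ifne, with 0 counts in each WT library and 4, 1 and 0 counts in the KO libraries, a difference that was not called (edgeR adjusted p = 0.397). Of 107 genes of the ligand, signalling and interferon-stimulated lists that are no members, 87 were tested, and 5 rose and 4 fell. That is 10.3% of those tested in either direction, beside 9.0% of all genes tested and 17.0% of those with at least 1 CPM. Without WT1, where calls over all genes also became more frequent, the counts were 10 higher and 8 lower. Their log2 fold changes were above 0 for 54 and below 0 for 33 with a median of 0.0747, and the genotypes did not overlap in 21 higher and 11 lower genes, beside 11.6% and 10.1% of all genes tested and 16.9% and 17.2% of those with at least 1 CPM. Tlr4, the receptor of bacterial lipopolysaccharide, rose from 2.98 ± 0.578 to 5.47 ± 0.526 CPM (log2 fold change 0.89, edgeR adjusted p = 0.000993). Socs3, an inhibitor of cytokine receptors, rose from 22.2 ± 0.595 to 37.3 ± 2.55 CPM (0.75, edgeR adjusted p = 3.66e-12). Both sit in the signalling list, where the kinase adaptor gene Tbkbp1 and the ubiquitin ligase gene Traf6 fell, by 0.49 and 0.30 on the log2 scale.

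Among the interferon-stimulated genes outside the set, the nucleotide kinase gene Cmpk2 rose with a log2 fold change of 0.63, the immunity-related GTPase gene Irgm2 with 0.54 and the cytidine deaminase gene Apobec3 with 0.49, and in all 3 the genotypes did not overlap. Irgm1, a relative of Irgm2, fell from 76.8 ± 8.25 to 55.5 ± 4.21 CPM (-0.46, edgeR adjusted p = 4.89e-07). Uba7, the enzyme that activates ISG15, fell from 14.6 ± 0.400 to 9.98 ± 0.700 CPM (-0.55, edgeR adjusted p = 0.000973). The receptor kinases Jak1 and Tyk2 were not called, with log2 fold changes of -0.10 (edgeR adjusted p = 0.458) and 0.17 (edgeR adjusted p = 0.383).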

How the data were processed

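Bulk RNA-seq of 3 WT and 3 KO MEF libraries was used. Per the methods and processing notes, reads were aligned with HISAT2 2.0.5 and counted with featureCounts 1.5.0-p3. The authors deposited raw counts per gene, and FPKM values of the same counts, for 55565 genes. The notes name GRCm38, but of the 50 genes looked up (the members and Mcm8) 0 had the start given by GENCODE M21 on that build; gene positions are those deposited, which the methods give as Ensembl 106, and promoter positions are RefSeq GRCm38.p6. Members with no promoter window (11) were not searched.

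The 26898 genes whose FPKM exceeded 0 in any library were fitted with edgeR 4.0.16 (R 4.3.3), TMM scaling and the quasi-likelihood test, without covariates, after the script was tested on simulated data. CPM values were computed here. The prior degrees of freedom were infinite, so each gene took the spread of the trend and a gene that varies more gets a p-value that is too small. Exact permutation of 3 against 3 gives no p-value under 0.1. SE is from the fit, intervals are 95%, and limits from counts cover counting error only. Alternatives used DESeq2 1.42.0, limma 3.58.1, other scalings and filters, a test against a 2-fold change, a replicate block and the omission of each library. Every member is accounted for, and library values are given for called members and for a fixed list of sensors, factors, receptors and effectors. Other genes of the pathway were named by the size of their fold change among those called, up to 8, with Jak1, Tyk2, Ifnb1 and another gene that is not reported here. Traf6, Ifne and the values of further members, such as Ifih1, Mx2 and Rtp4, were given after they were seen. The members and lists were chosen with earlier results of these data known.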

Additional observations from a re-analysis of the deposited data

How the results depend on the processing

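Against a 2-fold change as the null (edgeR's glmTreat), 0 members were higher, 0 lower and 0 DEGs, and 0 other pathway genes were called in either direction, beside 157 higher and 43 lower of all 26898 genes. With each library left out in turn, the members higher numbered 2 (without KO1) to 8 (without WT1), those lower 3 to 4, the DEGs 1 (without WT3 or without KO1) to 2, and other pathway genes 4 to 10 higher and 3 to 8 lower, both largest without WT1. The median log2 fold change of the members was 0.0098 to 0.0407 over these fits, and 0.0288 with edgeR's filterByExpr. Over all genes of the same fits it was 0.0 (without KO1 or without KO2) to 0.034 (without WT3), and 0.0001 with filterByExpr. DESeq2, limma voom and the fit with no filter each called 3 members higher and 3 lower, beside 961 and 811 (DESeq2) and 1068 and 828 (voom) of 26898 genes and 1139 and 868 of 55565 (no filter). The fold change of Cgas changed sign without WT3 and without KO2 (0.0333 and 0.026, range -0.0742 to 0.0333), that of Irf9 without WT1 (-0.1279 to 0.0217) and that of Oas1a without WT3 (-0.0293 to 0.0773), none of them called. Replicate numbers did not pair the libraries: same-numbered WT and KO libraries had correlations of deviations of -0.025, -0.0157 and 0.0373 over 14332 genes, within the -0.0246 to 0.0386 of other pairs or next to it. With the replicate block, 4 members were higher and 4 lower. Summing paralog reads was chosen after seeing the data. Genes near 1 CPM, such as Zbp1, are limited by depth. The causes of these differences were not tested.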
